A study of Mus musculus with 6 samples.

Results

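The DNA damage checkpoint detects breaks and stalled forks and halts the cell cycle until they are repaired. Here 10 of its genes were followed by their symbols in a table of 29333 genes from mouse testes with and without Hsf5: the apical kinases Atm and Atr, the ATR partners Atrip and Topbp1, the mediators Brca1 and Mdc1, the histone variant H2ax, the effector kinases Chek1 and Chek2, and the p53 relative Trp63. All 10 were found, 1 row each, and all 10 had a mean high enough to be tested. Whole testes were taken at postnatal day 16 from Hsf5-/- mice and from controls, which are labelled wild type, although the design text also allows Hsf5+/- animals among them. Of 3 samples labelled in each group, 2 have a column in the table: knockout 1, knockout 3, control 1 and control 2. Neither strain nor any pooling of animals is stated in the labels, and nothing says that the samples came from separate animals. The spread behind every p-value is that between these samples and may be technical.

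ATM, recruited to double-strand breaks, and ATR, recruited with its partner ATRIP to single-stranded DNA coated by RPA, are related kinases that phosphorylate many shared targets. In male meiosis they answer the programmed breaks of recombination. At the pachytene stage BRCA1, TOPBP1 and ATR gather on the unpaired axes of the X and Y chromosomes, H2AX is phosphorylated there, and MDC1 spreads the signal into the chromatin loops, which silences the sex chromosomes. In mice, unrepaired breaks in spermatocytes can trigger cell death through CHK2 and the p53 family, p63 among them.

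Atr and Mdc1 were lower in knockout testes and passed the test, and the promoters of this pair are shown because they fell together, with that of Atm, the sister kinase of Atr that did not fall, for comparison. The sequences are from RefSeq on build GRCm38.p6, whereas the deposited table was made on mm39 per the submitters' processing notes. Each covers 250 bases before and 50 after the start site, on the gene's own strand. Capitals mark matches to an E2F motif (TTTCCCGC, TTTGGCGC, TTTCGCGC or TTTGCCGC) or a MYB motif (CAACNG or TAACNG), searched on both strands.
Atr, chr9:95857347-95857646, plus strand: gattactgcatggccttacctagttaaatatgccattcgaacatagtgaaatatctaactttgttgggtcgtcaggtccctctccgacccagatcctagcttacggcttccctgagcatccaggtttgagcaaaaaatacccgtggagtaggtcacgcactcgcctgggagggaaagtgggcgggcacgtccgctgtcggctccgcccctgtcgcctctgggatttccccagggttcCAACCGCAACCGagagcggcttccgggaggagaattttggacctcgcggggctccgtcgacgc
Mdc1, chr17:35841248-35841547, plus strand: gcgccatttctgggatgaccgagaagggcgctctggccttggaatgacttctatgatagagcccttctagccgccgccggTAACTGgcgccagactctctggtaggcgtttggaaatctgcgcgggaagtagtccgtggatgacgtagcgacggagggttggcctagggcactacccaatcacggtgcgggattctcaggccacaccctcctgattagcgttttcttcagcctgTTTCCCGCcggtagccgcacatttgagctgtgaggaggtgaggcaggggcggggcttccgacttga
Atm, chr9:53536622-53536921, minus strand: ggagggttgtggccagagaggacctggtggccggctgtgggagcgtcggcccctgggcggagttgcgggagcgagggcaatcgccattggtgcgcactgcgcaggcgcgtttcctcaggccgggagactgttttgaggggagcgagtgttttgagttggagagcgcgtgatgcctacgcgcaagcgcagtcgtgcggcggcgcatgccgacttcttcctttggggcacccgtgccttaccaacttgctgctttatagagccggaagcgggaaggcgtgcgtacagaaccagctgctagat
Atr held 2 adjoining MYB matches, which began 13 and 7 bases before the start site. Mdc1 held 1 MYB match, 170 bases before the start, and 1 E2F match, 16 bases before it. The Atm window held neither. Of the 8 checkpoint genes with a promoter in the RefSeq table, 4 held a MYB match (Atr, Topbp1, Atrip and Mdc1) and 3 an E2F match (Chek2, Topbp1 and Mdc1), against 49.7% and 2.26% of all 32851 promoters. G and C made up 53.7% (Brca1) to 73.7% (Topbp1) of the 8 windows, against a median of 52.7% over all promoters. The shares were not matched for this, so they do not show an enrichment. The core of the heat shock element, GAANNTTC, which heat shock factors of the HSF1 type bind, was in 0 of the 8 windows and in 7.86% of all promoters. A match says only that the letters are in the window, and no match overlapped another.

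Reads assigned to genes, recovered from the deposited values, came to 16824757 in knockout 1 and 16209093 in knockout 3. They came to 18259304 in control 1 and 18557898 in control 2. Hsf5 itself had normalised read counts of 1926 and 1602 in the knockout libraries and 2541 and 3147 in the controls, so gene-level reads of the targeted gene were lower but present. Which exons these reads cover cannot be read from a sum over the gene. Markers of pachytene and diplotene spermatocytes fell in 14 of 14 genes, and their summed normalised count was 24294 and 19424 in the knockouts, against 65367 and 95798 in the controls. Early prophase markers fell in 1 of 12 genes, with sums of 37888 and 31775 in the knockouts and 36752 and 42444 in the controls. Spermatogonial markers were higher in 3 of 10 genes (sums of 17302 and 17009 in knockouts, against 15486 and 13225 in controls), and Sertoli markers in 3 of 10 (140905 and 132388 in knockouts, against 120444 and 113084 in controls). In whole testis, fewer cells of a type and less RNA per cell cannot be told apart.

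Atr encodes the kinase that acts on single-stranded DNA and on the silenced sex chromosomes. Its normalised read count was 7587 in knockout 1 and 7081 in knockout 3, against 9984 in control 1 and 11334 in control 2. Both knockouts lay below both controls. Atr fell to 68.8% of the control level, from means of 7334 ± 358 in knockouts and 10659 ± 955 in controls (SD, n = 2 each), a log2 fold change of -0.54 (95% interval -0.72 to -0.36, limma Benjamini-Hochberg adjusted p = 0.00269). Mdc1, the scaffold that binds phosphorylated H2AX, had 7242 and 6332 in knockouts 1 and 3, against 10048 and 10257 in controls 1 and 2. Here too the groups stood apart, and the controls lay closer together than the knockouts. Mdc1 fell to 66.8% of the control level, with a log2 fold change of -0.58 (95% interval -0.76 to -0.41, limma Benjamini-Hochberg adjusted p = 0.0016). In the authors' deposited table the log2 fold change was -0.54 for Atr (adjusted p = 2.47e-07) and -0.58 for Mdc1 (adjusted p = 1.27e-08).

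These 2 were the calls among the 10 genes, both of them falls, beside 13.5% of all 17480 genes tested that fell by limma and 3.28% that rose. With so few genes, 2 of 10 is not far from that background. No checkpoint gene rose by limma at the adjusted threshold. At an unadjusted p under 0.05, 4 were lower (Atr, Mdc1, Topbp1 and H2ax) and 1 was higher (Atm). Over all 17480 genes, 3522 were lower and 1896 higher at that threshold. The edgeR test on recovered reads likewise called these 2 genes and none higher, beside 12.3% of genes lower and 2.94% higher. By edgeR, 4 were lower and 1 higher at an unadjusted p under 0.05, beside 3371 and 1957 of 17773 genes. DESeq2 on recovered reads called 2 lower and none higher (11.3% and 2.26% of genes were lower and higher). At an unadjusted p under 0.05, DESeq2 gave 4 lower and 1 higher, beside 3180 and 1163 of 20234 genes. The Atr and Mdc1 calls by limma were lost without control 2 (adjusted p = 0.0682 and 0.0623 over the same 17480 genes). When the filter on low values was applied again to the remaining 3 libraries, which left 17288 genes, the calls held (adjusted p = 0.0148 and 0.00799).

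**Figure D1:**
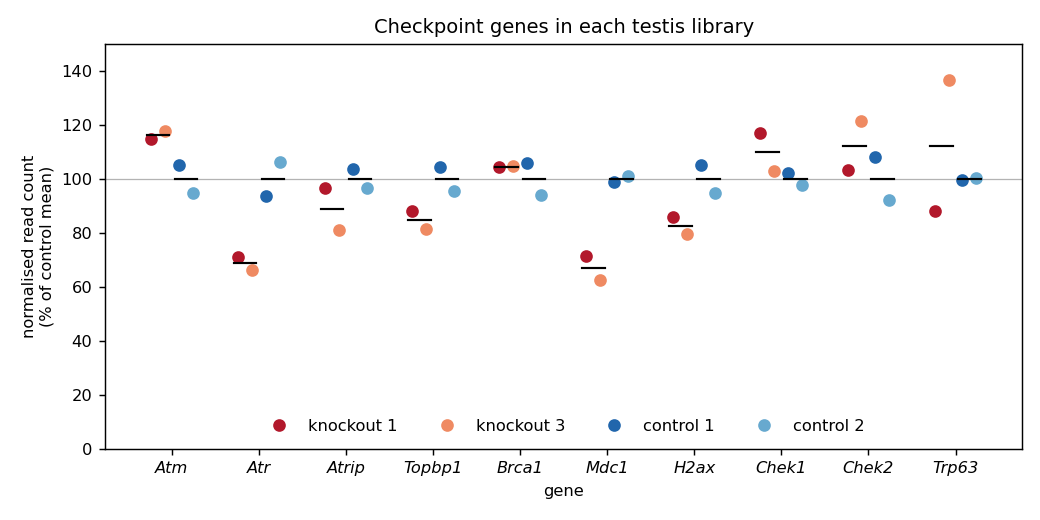
Normalised read count of each checkpoint gene in each library, as a percentage of that gene's control mean. Circles are libraries and black bars are group means (2 libraries each). Both knockouts lie below both controls for Atr, Topbp1, Mdc1 and H2ax, above them for Atm and Chek1, and overlap them for the other 4 genes.

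Atm, the double-strand break kinase, stood on the other side of its controls. Its normalised read count was 2202 in knockout 1 and 2260 in knockout 3, against 2016 in control 1 and 1817 in control 2. The groups did not overlap, with knockouts higher. The log2 fold change was 0.22 (95% interval 0.03 to 0.42), and it was not called by limma (Benjamini-Hochberg adjusted p = 0.119). The ratio of Atr to Atm within a library, with both per kilobase of exon, does not depend on how libraries are scaled. It was 1.51 and 1.37 in the knockouts and 2.17 and 2.73 in the controls, so the knockouts had 58.8% of the control ratio. Because Atr was lower and Atm higher in both knockouts, this ratio had to stand apart and adds no separate support. With 2 libraries against 2, an exact two-sided permutation test cannot give a p below 0.333, and that was its value here.

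Atrip, which keeps ATR stable and brings it to RPA, had groups that overlapped. It had 532 and 446 in knockouts 1 and 3, against 569 and 531 in controls 1 and 2. The log2 fold change was -0.17 (95% interval -0.47 to 0.13, limma Benjamini-Hochberg adjusted p = 0.415). Topbp1, which activates ATR, had 5057 and 4673 in the knockouts, against 5994 and 5495 in the controls. Every knockout value lay below every control value, at a log2 fold change of -0.24 (95% interval -0.42 to -0.06) that limma did not call (Benjamini-Hochberg adjusted p = 0.0694). The within-library ratio of Atr to Topbp1 was 0.713 and 0.720 in knockouts, against 0.791 and 0.980 in controls. That of Atr to Atrip was 4.32 and 4.81 in knockouts, against 5.31 and 6.47 in controls. Neither ratio overlapped between groups, and each had the exact permutation p of 0.333 that is the smallest possible. How often ratios of other gene pairs stand apart was not computed.

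H2ax, whose phosphorylated form marks breaks and the sex body, had 2023 and 1877 in knockouts 1 and 3, against 2478 and 2239 in controls 1 and 2. The groups did not overlap. Its log2 fold change was -0.27 (95% interval -0.47 to -0.07), short of the threshold by limma (Benjamini-Hochberg adjusted p = 0.0689). H2ax makes messages with and without a poly(A) tail, and no source used here says whether poly(A) selection was applied. Mdc1 stood at 0.667 and 0.629 times H2ax per kilobase in the knockouts, against 0.756 and 0.854 times in the controls. Brca1, which recruits ATR to unpaired axes in mouse spermatocytes, was close in the 2 groups. It had 1287 and 1291 in knockouts, against 1305 and 1161 in controls, a log2 fold change of 0.07 (95% interval -0.15 to 0.28, limma Benjamini-Hochberg adjusted p = 0.685). The ratio of Mdc1 to Brca1 was 6.47 and 5.64 in knockouts, against 8.85 and 10.2 in controls, without overlap. Because Mdc1 fell and Brca1 was close in the groups, this ratio had to stand apart and adds no separate support. For Mdc1 to H2ax and Mdc1 to Brca1 the exact permutation p was 0.333, the smallest possible. The ratio of Atr to Mdc1, both called, overlapped, at 0.329 and 0.351 in knockouts and 0.312 and 0.347 in controls.

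Chek1, the kinase that ATR activates to restrain CDC25 phosphatases, had 552 and 487 in knockouts 1 and 3, against 483 and 461 in controls 1 and 2. The lower knockout lay just above the higher control, and the log2 fold change was 0.14 (95% interval -0.15 to 0.42, limma Benjamini-Hochberg adjusted p = 0.508). Chek2, the main target of ATM among the effector kinases, had 172 and 203 in knockouts, against 180 and 154 in controls. Its groups overlapped, with a log2 fold change of 0.17 (95% interval -0.27 to 0.60, limma Benjamini-Hochberg adjusted p = 0.598). The ratio of Chek1 to Chek2 per kilobase overlapped as well, at 2.07 and 1.55 in knockouts and 1.73 and 1.94 in controls.

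Trp63 was the lowest of the 10 genes, with 71.2 and 111 in knockouts 1 and 3, against 80.5 and 81.3 in controls 1 and 2. The knockouts lay on both sides of the controls. These values rest on 71 and 108 reads in knockouts and 83 and 82 in controls, and the log2 fold change of 0.13 had a 95% interval from -0.50 to 0.77 (limma Benjamini-Hochberg adjusted p = 0.79). The counts do not separate the full-length form of p63, known for killing damaged mouse oocytes, from the shorter form of basal epithelia. Col17a1, the 1 basal epithelial marker measured of 5 listed, had 81.2 and 115 in knockouts and 101 and 87.3 in controls, and its part in the Trp63 level was not tested.

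**Figure D2:**
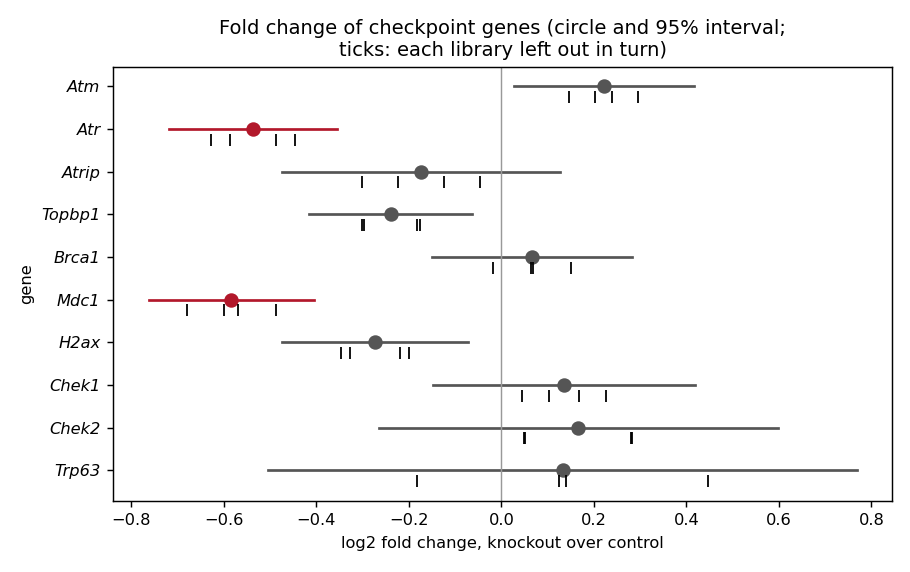
Log2 fold change of each checkpoint gene, knockout over control, as a circle with its 95% interval from limma. Red marks the 2 called genes, Mdc1 (-0.58) and Atr (-0.54), and the ticks under each line are the fold changes with 1 library left out. The ticks of Brca1 and Trp63 lie on both sides of 0, and those of the other 8 genes on 1 side.

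Without overlap between groups, 4 of the 10 genes were lower in knockouts (Atr, Topbp1, Mdc1 and H2ax) and 2 were higher (Atm and Chek1). Over all genes tested, 31.9% were lower and 29.8% were higher without overlap, 61.7% in either direction, so these counts are near the background. The median log2 fold change of the 10 genes was -0.05, beside 0.01 over all genes.

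Levels between genes were compared per kilobase of all annotated exons, with GENCODE M21 lengths from GRCm38. In knockouts the mean normalised count per kilobase was 1409 ± 75.0 for H2ax, 915 ± 86.7 for Mdc1, 433 ± 24.2 for Topbp1 and 310 ± 15.1 for Atr, against 1704 ± 122, 1368 ± 19.8, 512 ± 31.4 and 451 ± 40.4 in controls (SD, n = 2 each). These 4 genes led in both groups, and none overlapped the next in the order, although Topbp1 and Atr lay close together in controls. Atm followed at 216 in knockouts and 185 in controls, then Brca1 at 151 and 145, Chek1 at 112 and 102, Atrip at 68.4 and 76.9, Chek2 at 62.5 and 55.7, and Trp63 at 10.8 and 9.64. Atrip and Chek2 overlapped in the knockouts (62.3 to 74.4 for Atrip, 57.4 to 67.6 for Chek2) and did not in the controls. The order depends on the length used for Atr, whose annotated exons come to 23.6 kb against 8.1 kb for the longest coding transcript, for Topbp1, at 11.2 kb against 5.22 kb, and for Atrip, at 7.15 kb against 2.57 kb. Per kilobase of the longest coding transcript, Atr stood at 905 in knockouts and 1316 in controls, Topbp1 at 931 and 1100, and Mdc1 at 925 and 1384. On that length the means of Atr and Mdc1 were below that of Topbp1 in knockouts and above it in controls. These knockout means lay close together, and the spread on that length was not computed, so they set no order. Atrip stood at 190 in knockouts and 214 in controls, above Chek1 (137 and 124) in both groups. It was below Atm (227) and Brca1 (196) in knockouts and above them in controls (195 and 188), with the means of Atrip and Brca1 close together in knockouts.

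Scaling moved all 10 genes together. The median log2 fold change of all genes was 0.01 with the authors' size factors, 0.12 with library totals, 0.20 when libraries were scaled to the early prophase markers and -0.21 when they were scaled to Sertoli markers. Atr stood at -0.43, -0.35 and -0.76 under the last 3, and Mdc1 at -0.47, -0.40 and -0.81, so both were lower in knockouts under every scaling. Each scaling multiplies a library by 1 factor and so shifts all genes alike. Distances from the median of all genes could therefore hardly change, and they are no separate support. They were -0.55 for Atr, -0.60 for Mdc1 and 0.20 to 0.21 for Atm under the 4 scalings. Scaled to early prophase markers, neither Atr nor Mdc1 was called by limma (Benjamini-Hochberg adjusted p = 0.259 and 0.195). A scaling also changes the spread within groups. The standard error was 0.197 for each gene there, against 0.080 for Atr and 0.078 for Mdc1 with the authors' size factors. Scaled to library totals, both genes kept the call (adjusted p = 0.0032 and 0.00219). Scaled to Sertoli markers, Topbp1 (-0.47) and H2ax (-0.50) were called lower as well (adjusted p = 0.00359 and 0.00476). Scaled to library totals, Atm was called higher (0.33, adjusted p = 0.0378). Its value of -0.01 with Sertoli scaling includes the shift common to all genes, and which scaling suits these testes was not tested.

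**Figure D3:**
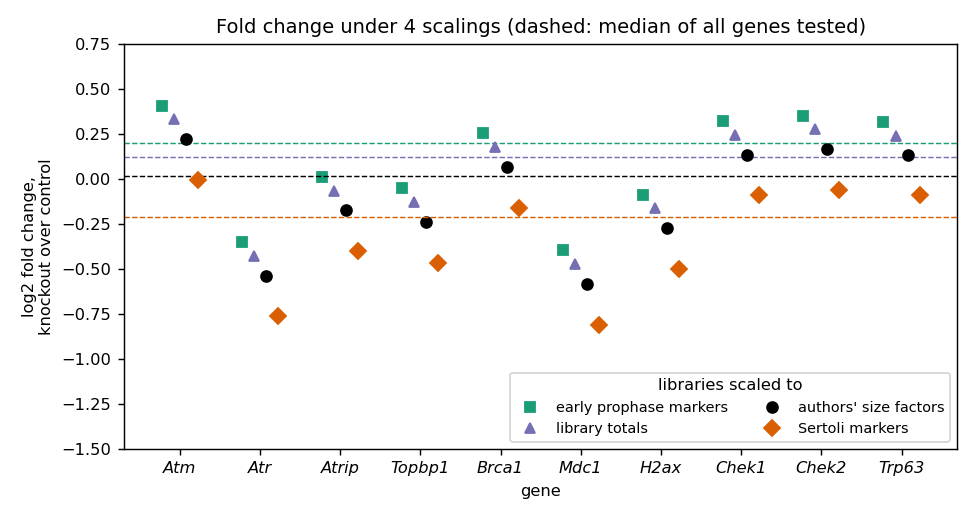
Log2 fold change of each checkpoint gene, knockout over control, under 4 scalings of the libraries, with the median of all genes under each as a dashed line. Atr and Mdc1 lie below 0 and below the dashed line of the same colour under all 4, while Atm lies above its line under all 4, between 0.41 with early prophase markers and -0.01 with Sertoli markers. A scaling shifts all genes alike, so the distance of a gene from its line could hardly differ between the 4.

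Markers of later spermatocytes moved with Atr and Mdc1. The summed pachytene and diplotene markers were at 27.1% of the control level in knockouts, early prophase markers at 88.0%, Sertoli markers at 117% and spermatogonial markers at 120%. Within the controls, the pachytene markers differed by a median log2 of 0.59 (control 2 over control 1), Atr by 0.18, Mdc1 by 0.03, Topbp1 by -0.13 and H2ax by -0.15. Atr was higher in the control with more pachytene marker reads, and Mdc1 was nearly equal in both controls. Within the knockouts (knockout 3 over knockout 1), Atr differed by -0.10, Mdc1 by -0.19, Topbp1 by -0.11 and H2ax by -0.11. The pachytene and diplotene sum was 24294 in knockout 1 and 19424 in knockout 3. The part of these marker changes in the falls of Atr and Mdc1 was not tested.

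**Figure D4:**
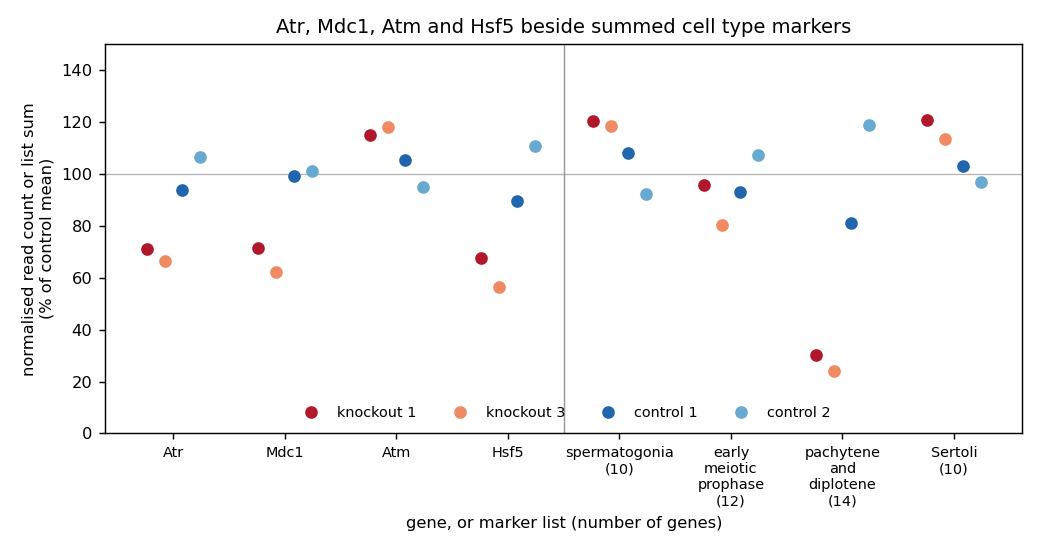
Normalised read counts of Atr, Mdc1, Atm and Hsf5 and summed counts of 4 marker lists in each library, as a percentage of the control mean. Circles are libraries. The pachytene and diplotene sum is at 27.1% of the control level in knockouts, against 68.8% for Atr and 66.8% for Mdc1.

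Of 75 other genes of the pathway, 73 were tested, and 9 fell and 3 rose, or 12.3% and 4.11%, near the background over all genes. Among the damage sensors and the clamp loader, 3 of 18 fell, and the list median was -0.04 on the log2 scale. They were Rpa1, which coats single-stranded DNA (-0.58, limma Benjamini-Hochberg adjusted p = 0.00848), Rfc2, a loader subunit (-0.53, adjusted p = 0.014), and Rad9b, a clamp subunit expressed in testis (-0.44, adjusted p = 0.0372). The other RPA subunits stood at 0.06 for Rpa2 and 0.08 for Rpa3, neither called. Rpa1 had 1831 and 1680 in knockouts, against 2363 and 2902 in controls. Rpa1 and Rfc2 lost the call without control 2 (adjusted p = 0.082 and 0.12) and without knockout 3 (0.0867 and 0.128), and Rad9b without any 1 library (0.0558 to 0.276).

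Of 18 chromatin mediators and adaptors, 2 fell: Rif1, which limits resection of breaks (-0.36, limma Benjamini-Hochberg adjusted p = 0.0174), and Rbbp8, which starts resection (-0.31, adjusted p = 0.0325). Rif1 lost the call without control 2, knockout 1 or knockout 3 (adjusted p = 0.157, 0.118 and 0.084), and Rbbp8 without any 1 library (0.0817 to 0.2). None of 7 related kinases and their chaperones was called by limma, of which the most highly counted were Trrap (0.12) and Smg1 (0.05). In this last list the fold changes lay between -0.24 for Tti1 and 0.27 for Telo2, a TTI1 partner that helps ATM and ATR fold.

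Of 11 genes listed for ATR recruitment and sex chromosome silencing, 3 fell, with a median of -0.15. Hormad1, which marks unpaired axes and is needed for ATR to gather there in mice, had 4617 and 3944 in knockouts, against 5712 and 5796 in controls. Both knockouts lay below both controls, with a log2 fold change of -0.43 (limma Benjamini-Hochberg adjusted p = 0.0109). Its relative Hormad2 was at -0.03. Rad9b, a member of the sensor list too, was also among those that fell. Hormad1 lost the call without control 1, control 2 or knockout 3 (adjusted p = 0.0796, 0.141 and 0.0946).

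Among 11 tested effectors and brakes of the checkpoint, 2 fell and 1 rose. Pkmyt1, which holds CDK1 inactive, had 220 and 162 in knockouts, against 614 and 771 in controls, a log2 fold change of -1.86 (limma Benjamini-Hochberg adjusted p = 0.000545). Mdm2, the ligase that degrades p53, had 2258 and 2167 in knockouts, against 3036 and 3318 in controls (-0.52, adjusted p = 0.00324). Trp53 rose, with 1466 and 1400 in knockouts, against 1199 and 1105 in controls (0.32, adjusted p = 0.0484). Pkmyt1 and Mdm2 kept the call without each library in turn, and Trp53 lost it without any 1 (0.0635 to 0.25). Cdkn1a, the cell cycle inhibitor that p53 induces, stood at 0.05, Wee1, another kinase that restrains CDK1, at 0.10 and Cdc25a at 0.20, none of them called.

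Of 7 genes listed as p63 targets in cell death, 1 rose: Bbc3, which encodes PUMA. It had 143 and 166 in knockouts, against 75.6 and 69.4 in controls, a log2 fold change of 1.08 (limma Benjamini-Hochberg adjusted p = 0.0118), and the call was lost without any 1 library (0.0611 to 0.136). The others, among them Pmaip1 (0.22), Bax (0.27) and Bid (0.39), were not called. The median of the 7 genes was 0.27, beside 0.01 over all genes, and 1 of them had a negative fold change. Among 5 other H2A variants, H2az2 rose by 0.35 on the log2 scale (adjusted p = 0.0268), a call lost without control 2, knockout 1 or knockout 3 (0.153, 0.17 and 0.132), beside the H2ax value of -0.27.

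**Figure D5:**
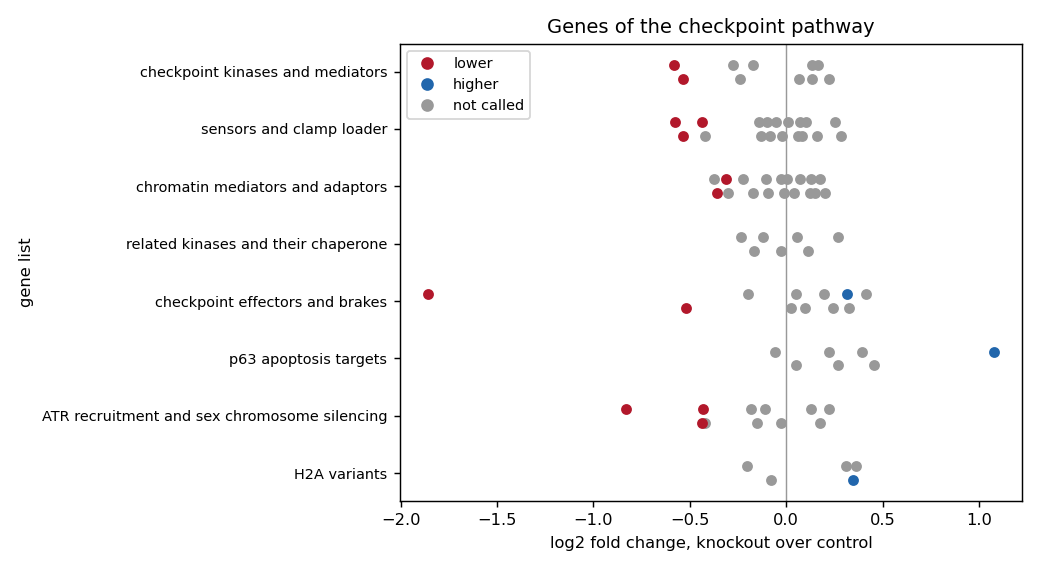
Log2 fold change of each tested gene, knockout over control, in the 10 checkpoint genes and in 7 lists of the same pathway, with genes called lower in red and higher in blue. The lowest value is that of Pkmyt1 (-1.86) and the highest that of Bbc3 (1.08). The list medians run from -0.15 for ATR recruitment and sex chromosome silencing to 0.31 for H2A variants.

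Several checkpoint genes have a close neighbour that starts from the opposite strand. Npat, beside Atm, stood at a log2 fold change of 0.02, Nbr1, beside Brca1, at 0.02, and Hscb, beside Chek2, at 0.34, none called by limma (Benjamini-Hochberg adjusted p = 0.931, 0.895 and 0.207). Inhca, 133 bases from Topbp1 and also on the opposite strand, stood at -0.66. Its groups overlapped and it was not called (limma Benjamini-Hochberg adjusted p = 0.253). Atr overlaps 2 noncoding genes of the opposite strand, 1700065D16Rik and Gm16794. They had between 18.4 and 42.6 normalised reads in every library, against at least 7081 for Atr, and no source used here gives the strand setting of the counting. Xrn1, which follows Atr, stood at 0.07 (adjusted p = 0.678), and Tubb5, beside Mdc1, at 0.09 (adjusted p = 0.553). The called neighbours were 3. 4930550C14Rik, beside Atm, was lower, with 45.1 and 45.1 in knockouts, against 133 and 178 in controls (-1.75, adjusted p = 0.00249). Tma7, beside Atrip, was lower (-0.39, adjusted p = 0.0274), and Rnd2, beside Brca1, was higher (0.43, adjusted p = 0.011). Pls1, Shisa5, Cdv3, Stt3a and Ttc28 were not called and lay between -0.21 for Ttc28 and 0.31 for Shisa5.

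The genes whose pattern over the 4 libraries was closest to that of Atr were Dhx30, Pam16 and Corin, with Euclidean distances of 0.009, 0.014 and 0.019 between centred log2 values. In all, 135 of 14190 named protein-coding genes lay within 0.1 of Atr. Those closest to Trp63 were Apln, Ceacam2 and Sybu (0.057, 0.071 and 0.08). With 4 libraries such likeness is a description.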

How the data were processed

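The labels list 6 samples, of which 4 have a column in the table used. Per the submitters' processing notes, cutadapt, Bowtie2, featureCounts, DESeq2 and the build mm39 were used, with no versions or settings given. The values the authors deposited are a signal, reads scaled by a size factor for each library. In every library 100% of values were whole multiples of the worth of 1 read within 1e-06, so whole reads were recovered. The authors' deposited table also holds a log2 fold change, a standard error and test score, and a p-value for each gene. The main test was limma 3.58.1 (R 4.3.3) of knockout over control. It used log2(value + 1), fitted the variance as a trend on the mean, and kept the 17480 genes whose mean was at least 10. The threshold was 0.05 after Benjamini-Hochberg adjustment. It used 6.3 prior and 2 residual degrees of freedom, so p-values rest largely on variance pooled over genes. edgeR 4.0.16 and DESeq2 1.42.0 were run on the recovered reads, and all 3 were tested on simulated data. The simulated reads had the same spread setting for every gene, unlike these data, so that run does not show how reliable the calls are here. The added 1 makes fold changes of low genes too small.

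The members and lists were chosen with earlier results of these data known, so they are not independent support. Named genes were the 10 members, the called genes of each list (up to 4, or the 2 highest where none was called), neighbours on GRCm38, and the 3 closest patterns to the called gene with the highest mean and to Trp63. Neighbours under the filter are not given, and 1 called list gene and 1 neighbour are not reported here. Cdkn1a, Rnf8, Rad9b and Hus1b are in 2 lists. Any other list gene was picked with its value known. Protein sequences were not used here.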

Additional observations from a re-analysis of the deposited data

How the results depend on the processing

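Atr and Mdc1 were lower in knockouts in all 18 alternatives run, between -0.76 and -0.35 for Atr and between -0.81 and -0.40 for Mdc1. Most of these could not turn the direction. Filter and trend settings leave a fold change as it is, the value added before the log hardly moves it, and DESeq2 repeats the authors' method. The direction was thus open mainly in the scalings and in the libraries left out. Of the 10 genes, 2 were called lower and 0 higher. At an unadjusted p under 0.05, 4 were lower and 1 higher, beside 3522 and 1896 of 17480 genes. Without a filter 1 was called lower (Mdc1). Without the mean-variance trend 0 were, with 2 lower at an unadjusted p under 0.05, beside 2827 of 17480 genes. Scaling to early prophase markers gave 0, with 1 lower at an unadjusted p, beside 1855 of 17480 genes. Scaling to Sertoli markers gave 4. Leaving out 1 library gave 0 to 2, and 2 each time when the filter was applied again, an alternative chosen after seeing the data. Scaling to library totals gave 1 higher. Over all genes, 2366 lower and 573 higher became 815 and 37 without a filter, 40 and 0 without the trend (1456 higher at an unadjusted p), 4095 and 63 with Sertoli scaling, 2007 and 1511 with library totals, 1401 and 510 with early prophase scaling, and 889 to 2096 and 31 to 337 without 1 library. With the filter applied again these were 2054 and 308 without control 1, 1389 and 192 without control 2, 1549 and 77 without knockout 1, and 1086 and 71 without knockout 3. Falls were 80.5% of calls, against 57.0% with library totals, 98.5% with Sertoli scaling and 73.3% with early prophase scaling. Of the 73 listed genes, 9 lower and 3 higher became 3 and 0 without a filter, 0 and 0 without the trend (10 and 4 at an unadjusted p), 21 and 1 with Sertoli scaling, 6 and 7 with library totals, 2 and 1 with early prophase scaling, and 3 to 6 and 0 to 1 without 1 library. With the filter applied again these were 6 and 1, 5 and 0, 6 and 0, and 3 and 0, in the order of libraries above. Directions that turned were those of uncalled genes: with Sertoli scaling Atm (-0.0057), Brca1 (-0.16), Chek1 (-0.091), Chek2 (-0.059) and Trp63 (-0.092), and with early prophase scaling Atrip (0.013). A scaling shifts all genes alike, so distances from the median of all genes could hardly change and are no separate support. Under the 4 scalings they were 0.20 to 0.21 for Atm, 0.050 to 0.053 for Brca1, 0.12 for Chek1, 0.15 for Chek2, 0.12 for Trp63 and -0.19 for Atrip. Which scaling suits these testes was not tested. Leaving out 1 library, with or without the filter applied again, gave -0.018 to 0.15 for Brca1, negative without control 2, and -0.18 to 0.45 for Trp63, negative without knockout 3. The cause of the other changes was not tested. No paired analysis was possible because the labels record no pairing, and an equal replicate number is not said to mark a pair.

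At this depth, Trp63 and Chek2, with at most 203 normalised reads in a library, had the widest intervals of the 10 genes, so changes of moderate size would not have been called.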
